A study of Mus musculus with 4 samples.

Results

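Glutathione transferases join the tripeptide glutathione to reactive, electron-poor molecules, among them the epoxides that cells make from polycyclic hydrocarbons, and so make them soluble and ready for export. The soluble enzymes fall into classes named alpha, mu, pi, theta and omega, whose genes lie in clusters of near copies, and an unrelated set of membrane proteins, the MAPEG family, includes the microsomal transferases. Many of these genes are known to be switched on by the antioxidant-sensing factor NRF2 and the hydrocarbon-sensing aryl hydrocarbon receptor, and the alpha class is known best from liver, intestine and other tissues rich in detoxifying enzymes.

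The 10 genes described are Gsta1, Gsta2, Gsta3 and Gsta4 (alpha), Gstm1 and Gstm2 (mu), Gstp1 (pi), Gstt1 (theta), Gsto1 (omega) and Mgst1 (microsomal). Every non-control probe that the array files name for them was taken, which gave 14 probes for 10 genes, out of 61307 probes and 50090 gene names. The genes were proposed with their differences between the groups already known, so their values are given as a description and without a test. RNA came from C3H10T1/2 cells, a mouse embryo fibroblast line used to score transformation by chemicals. The 2 control arrays held cells kept in culture for 6 weeks. The 2 exposed arrays, called 3MC+TPA, held cells given 3-methylcholanthrene (3MC), a polycyclic hydrocarbon carcinogen, at 2.5 µg/ml for 2 days, then plain medium for 4 days, then the phorbol ester tumour promoter TPA at 100 ng/ml, renewed within each week, for 2 weeks, and finally plain medium for 4 weeks. Exposure had therefore ended 4 weeks before RNA was taken, and the control description names no solvent treatment.

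The labels do not state that the arrays of a group held separate cultures, and the spread behind each error and p-value below may be only technical. All 4 arrays lay on a single slide with the control arrays placed first, which means that group and slide position cannot be told apart. Between 32125 and 32512 of 61657 spots per array were well above background. All 9 fibroblast markers were well above background on every array. Thy1 was higher on the 3MC+TPA arrays (limma, adjusted p = 0.047) and Pdgfra (adjusted p = 0.021) and Pdgfrb (adjusted p = 0.022) were lower, but none of these calls held without either 3MC+TPA array. Of 6 hepatocyte markers, Tat and Afp were well above background on all 4 arrays and not called, Alb on 1 array, and Ttr, Apoa1 and Cyp2e1 on 0. Of 3 chondrocyte markers, Sox9 was lower by a log2 difference of -2.32 ± 0.22 (limma, adjusted p = 0.0044). Col2a1 went the other way, by 0.79 ± 0.23 (limma, adjusted p = 0.083), and Acan differed by -0.30 ± 0.15 (adjusted p = 0.24). Neither Col2a1 nor Acan was called. The endothelial marker Tek was well above background on the 3MC+TPA arrays alone and differed by 1.80, or by 0.29 with normexp background correction; Pecam1, Cdh5 and Kdr were so on 0 arrays. The part of these markers in the transferase differences was not tested. In such bulk RNA, fewer cells that express a gene and less RNA per cell cannot be told apart.

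The array reads each transcript with probes of 60 bases. The Gsta1 and Gsta2 probes overlap on the transcripts, and the 20 bases that both hold without a mismatch are in capitals; they are shown because both genes stood far lower in 3MC+TPA cells and their probes could share signal.
Gsta1 probe: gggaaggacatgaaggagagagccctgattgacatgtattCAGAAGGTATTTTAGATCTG
Gsta2 probe: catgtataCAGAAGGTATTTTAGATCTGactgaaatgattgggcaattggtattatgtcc
Over the 28 bases where they overlap, 27 match. Among the 87 pairs of probes of different members, no other pair shared more than 9 bases in a row, and no member probe shared 30 bases in a row with a probe of another gene name on the array. The Gsta1 probe is also listed for the predicted copy Gm10639. Of the 4 transcripts listed for it, 2 were found in the gene table, so its values may be those of Gsta1, Gm10639 or a copy not named here.

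The promoters of the 3 alpha genes that stood furthest below control are shown as the 250 bases before the start of each transcript, from RefSeq in build GRCm38.p6. In Gsta1 and Gsta2 the capitals mark the 29-base run they share, and in Gsta3 a match to the antioxidant response element core, TGACNNNGC.
Gsta1, chr9:78230419-78230668, plus strand: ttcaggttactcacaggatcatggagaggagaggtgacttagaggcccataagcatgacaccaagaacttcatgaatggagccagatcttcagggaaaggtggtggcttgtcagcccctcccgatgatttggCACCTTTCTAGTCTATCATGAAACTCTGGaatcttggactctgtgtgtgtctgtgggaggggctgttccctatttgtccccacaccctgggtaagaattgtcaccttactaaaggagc
Gsta2, chr9:78347146-78347395, minus strand: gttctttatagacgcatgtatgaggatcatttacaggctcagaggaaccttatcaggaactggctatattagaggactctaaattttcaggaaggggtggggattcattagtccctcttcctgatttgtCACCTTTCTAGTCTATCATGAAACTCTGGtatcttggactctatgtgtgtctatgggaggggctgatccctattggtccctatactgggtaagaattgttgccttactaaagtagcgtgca
Gsta3, chr1:21240335-21240584, plus strand: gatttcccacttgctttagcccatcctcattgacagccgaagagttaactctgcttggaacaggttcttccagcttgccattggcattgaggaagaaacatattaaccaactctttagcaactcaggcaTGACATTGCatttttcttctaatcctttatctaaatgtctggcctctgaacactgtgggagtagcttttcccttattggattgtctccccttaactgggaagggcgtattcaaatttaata
Aligned end to end, Gsta1 and Gsta2 were 70.5% identical (184 of 261 columns), whereas Gsta3 was 50.7% identical to Gsta1 and 50.5% to Gsta2. The table held promoters for 9 of the 10 genes, with 2 windows each for Gstm1 and Mgst1. Both strands were searched for the NRF2 core TGACNNNGC, the AP-1 site TGANTCA and the aryl hydrocarbon receptor core GCGTG, motifs that do not contain each other. Positions count back from the start, whose last upstream base is -1. The NRF2 core was found at -121 to -113 in Gsta3. On the minus strand it was found at -56 to -48 in 1 of the 2 Mgst1 windows. Of all 32841 promoters, 10.2% held it. The AP-1 site was found at -74 to -68 in Gstp1, against 6.75% of promoters. The receptor core, held by 28.2% of promoters, was found in Gsta2, Gstm1 and Gstp1. None of these letters were found in the 250-base windows of Gsta1, Gstm2, Gstt1 and Gsto1, and sequence further upstream was not searched. A match describes letters only and was not tested for binding.

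The clearest feature of the family was much lower levels of 3 of the 4 alpha class transcripts in 3MC+TPA cells. Levels are log2 ratios of a probe's processed signal to the 75th percentile of its array, so that a value of 0 is as bright as that percentile, and differences are 3MC+TPA minus control with the standard error of the fit. Levels of different probes are not comparable, because probes differ in how strongly they bind. Gsta3, an alpha enzyme, read 3.79 and 3.98 on the control arrays and -2.75 and -2.68 on the 3MC+TPA arrays with its brighter probe. The control arrays were high and the 3MC+TPA arrays low, with no overlap, and the mean went from 3.88 ± 0.13 (SD, n = 2) to -2.72 ± 0.05. The difference was -6.60 ± 0.16, or 96.9-fold lower. Its other probe read 2.97 and 3.19 in control and -3.40 and -3.86 in 3MC+TPA cells, which is 105-fold lower. In scanner units the brighter probe went from 7508 and 9362 to 104 and 117, which was still well above background on both arrays. With normexp background correction the difference was -5.85.

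Gsta1, a broad detoxifying alpha enzyme that also reduces lipid peroxides, read 0.85 and 1.66 in control and -3.93 and -4.45 in 3MC+TPA cells. Its control arrays lay further apart than those of Gsta3, yet both stood far above the 3MC+TPA arrays. The difference was -5.44 ± 0.33, or 43.6-fold lower, and the probe stayed well above background on all 4 arrays. With normexp it was -4.10. Gsta2, its near copy, read -0.73 and 0.22 in control and -6.99 and -5.47 in 3MC+TPA cells. Both 3MC+TPA values were below what the scanner calls well above background, and 1 of them was a value the scanner software had substituted. Gsta2 was therefore at least 23.4-fold lower, a bound set by the dimmest well measured signal on each array, with the fitted difference at -5.97 ± 0.58. That bound does not hold under normexp, where the difference was -3.002. The order of the controls was the same for Gsta1 and Gsta2, with control array 2 above control array 1 by 0.81 and 0.95. These probes overlap in sequence as shown above, and how much signal they share was not tested.

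Gsta4, the alpha enzyme specialised for the lipid peroxidation product 4-hydroxynonenal, behaved differently. It read 3.73 and 3.44 in control and 2.78 and 2.92 in 3MC+TPA cells. The groups did not overlap, but the difference was only -0.73 ± 0.18, or 1.66-fold lower. Gsta4 lies in the same stretch of chromosome 9 as Gsta1 and Gsta2.

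**Figure D1:**
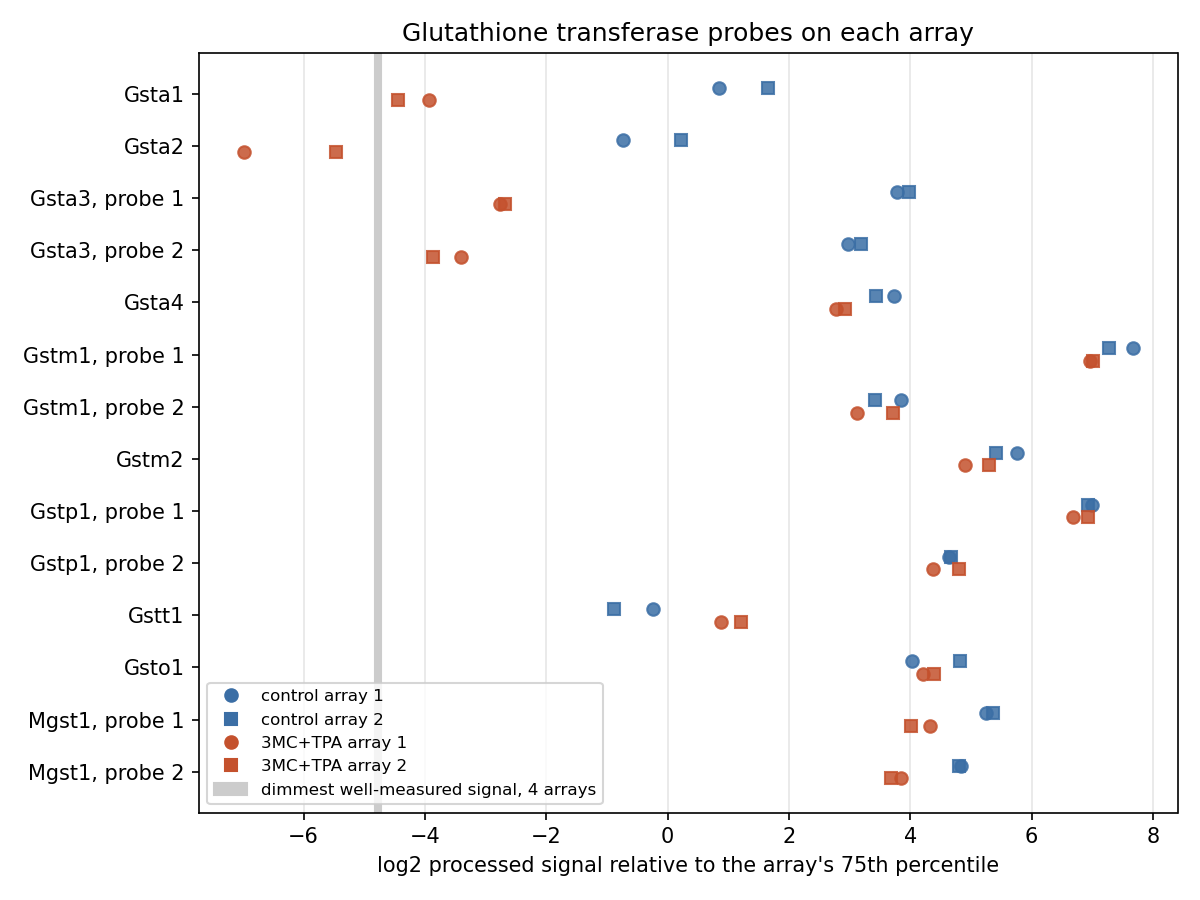
Level of each of the 14 probes on each of the 4 arrays, as log2 of the processed signal over the 75th percentile of that array, with control arrays in blue and 3MC+TPA arrays in orange; the grey band is the dimmest well-measured signal. The 3MC+TPA points of Gsta1, Gsta2 and Gsta3 lie far to the left of the control points, those of Mgst1 lie to the left by about 1 unit, and those of Gstt1 lie to the right.

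Gstm1, Gstm2 and Gstp1 were bright on all arrays and differed little. Gstm1, a mu enzyme that conjugates aromatic epoxides, read 7.67 and 7.27 in control and 6.96 and 7.01 in 3MC+TPA cells with its brighter probe, a difference of -0.49 ± 0.19. Its other probe read 3.84 and 3.43 in control against 3.12 and 3.72 in 3MC+TPA cells, and there the groups overlapped. Gstm2, also of the mu class, read 5.76 and 5.41 in control and 4.90 and 5.30 in 3MC+TPA cells, a difference of -0.48 ± 0.22. Its groups did not overlap, but the nearest arrays were close together.

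Gstp1 encodes the pi enzyme, the transferase found in most dividing cells, which also binds the stress kinase JNK. It has probes that differ in which gene copies they can read, so their sequences are shown in full. Of the 4 transcripts listed for probe 1, 2 were found in the gene table, so it may also read copies not named here.
Gstp1 probe 1, listed for Gstp1 and its copy Gstp2: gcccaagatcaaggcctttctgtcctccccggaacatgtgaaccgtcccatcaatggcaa
Gstp1 probe 2, listed for Gstp1 alone: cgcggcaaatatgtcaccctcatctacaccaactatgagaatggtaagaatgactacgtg
Probe 1 read 6.99 and 6.94 in control and 6.68 and 6.92 in 3MC+TPA cells. Probe 2 read 4.63 and 4.67 in control and 4.37 and 4.81 in 3MC+TPA cells. Only probe 1 kept the groups apart, by a margin smaller than the gap between its 3MC+TPA arrays, and the differences were -0.16 ± 0.17 for probe 1 and -0.06 for probe 2. With no scaling between arrays, the sign of the Gstp1 difference turned to 0.18. Gsto1, an omega enzyme that reduces dehydroascorbate and mixed disulfides, read 4.03 and 4.83 in control and 4.21 and 4.40 in 3MC+TPA cells. Both 3MC+TPA values lay between the control values, and the difference of -0.12 ± 0.30 turned positive (0.28 at most) under other settings.

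Gstt1 was the only one of the 10 genes that stood higher after 3MC and TPA. Its product, a theta enzyme, acts on small halogenated compounds and peroxides. It read -0.23 and -0.88 in control and 0.89 and 1.22 in 3MC+TPA cells. Every 3MC+TPA array was above every control array, and the difference was 1.60 ± 0.27, or 3.04-fold higher, with scanner signals of 462 and 324 against 1295 and 1735. Mgst1, the microsomal transferase with peroxidase activity in the endoplasmic reticulum and outer mitochondrial membrane, went the other way. It read 5.25 and 5.37 in control and 4.32 and 4.02 in 3MC+TPA cells, a difference of -1.14 ± 0.18, or 2.20-fold lower. Its other probe read 4.84 and 4.80 against 3.85 and 3.68, or 2.09-fold lower. Both Mgst1 probes kept the groups apart by a similar margin.

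Over the 24980 features tested with limma, 15.8% were called at an adjusted p under 0.05, 7.44% higher and 8.32% lower. By that rule 4 of the 10 genes were called lower (Gsta1, Gsta2, Gsta3 and Mgst1), 1 higher (Gstt1) and 5 not called. The genes were chosen on this contrast, so nothing is read from that count. The arrays of the groups did not overlap for 9 of the 10 genes, 8 of them lower in 3MC+TPA cells, where 63.8% of all features did not overlap and 31.9% did so with 3MC+TPA lower. The median difference of the 10 genes was -0.61, against -0.0066 over all features. Leaving out control array 2 took Mgst1 out of the called genes, and leaving out either 3MC+TPA array took out both Mgst1 and Gstt1. Gsta2 entered the test only through its control arrays and was not tested with a filter on all 4 arrays. With no filter on dim probes, Gsta2, Mgst1 and Gstt1 all lost their calls, and only Gsta1 and Gsta3 were called.

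The clusters show how far neighbours shared these differences. Neighbours outside a cluster are the nearest tested genes, and untested genes between them were passed over. On chromosome 9 the gene order is Gsta4, Gsta1, then untested predicted copies and egg cell genes, then Gsta2. The tested genes just outside it, Elovl5, Fbxo9, Cilk1, Cgas and Mto1, were not called. Dppa5a, the nearest tested gene beyond Gsta2 and known from early embryos, was lower by a log2 difference of -1.22 ± 0.21 (limma, adjusted p = 0.023). This call ended without control array 2 or either 3MC+TPA array. Gsta3 stands alone on chromosome 1, where Tmem14a, the tested gene just before it, differed by 0.04 ± 0.15. Ogfrl1, the second tested gene after it, was higher by 2.35 ± 0.17 (limma, adjusted p = 0.0022).

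The mu cluster on chromosome 3 was mixed. Gstm7 read -1.86 and -1.82 in control and -4.12 and -3.77 in 3MC+TPA cells, and was lower by a log2 difference of -2.11 ± 0.18 (limma, adjusted p = 0.0037), or -1.29 with normexp. Gstm5 was lower by -0.84 ± 0.17 (adjusted p = 0.036), a call that ended when any 1 of the 4 arrays was left out. Gstm3 (-0.40) and Gstm6 (0.07) were not called. Csf1, the nearest tested gene outside the cluster on the side of Gstm5, was lower by -0.95 ± 0.15 (limma, adjusted p = 0.018). That call ended without control array 2 or either 3MC+TPA array.

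In the theta cluster on chromosome 10, Gstt3 read 1.63 and 1.03 in control and 3.06 and 3.09 in 3MC+TPA cells. Both 3MC+TPA arrays were above both control arrays, as for Gstt1, and Gstt3 was higher by 1.74 ± 0.24 (limma, adjusted p = 0.013), though the call ended without either 3MC+TPA array. Gstt2 (0.64 ± 0.15, adjusted p = 0.051) and Gstt4 (-0.96 ± 0.39, adjusted p = 0.16) were not called. Ddt, between the theta genes and Cabin1, was higher by 0.86 ± 0.18 (adjusted p = 0.036), a call that ended without any 1 array. On chromosome 19, Gsto2 was higher by 1.12 ± 0.15 (limma, adjusted p = 0.012) beside Gsto1, which did not differ beyond its spread. The Gsto2 call too ended without either 3MC+TPA array, and it also ended with the mean of the gene's probes that passed the filter.

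**Figure D2:**
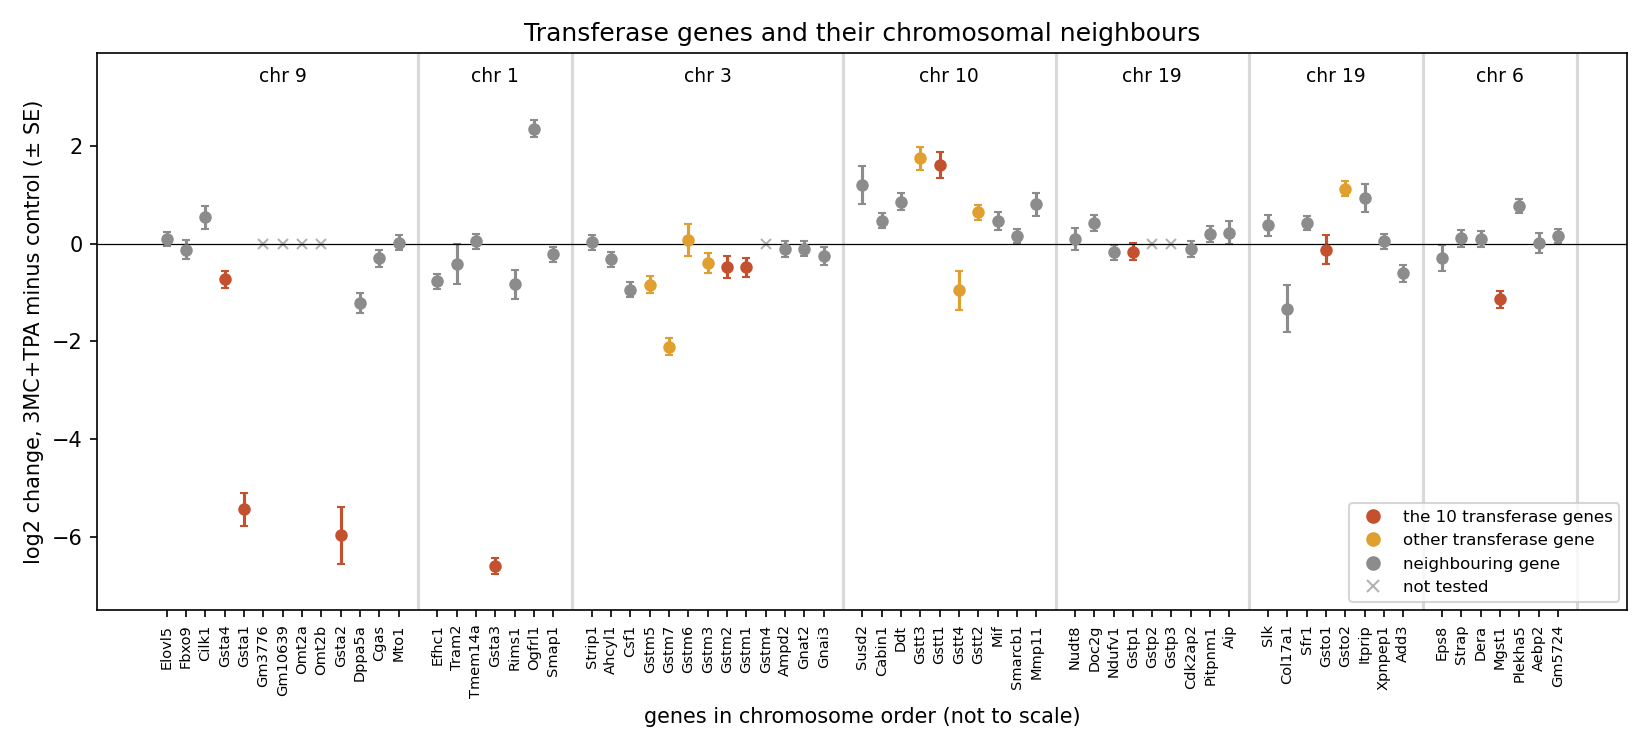
Log2 difference, 3MC+TPA minus control, of each tested gene in chromosome order through the clusters that hold the 10 genes. Gsta1, Gsta2 and Gsta3 lie between -5.44 and -6.60, and most genes beside them lie near 0.

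Among 21 other transferase and MAPEG genes, 14 were tested, 3 were higher and 3 lower, with a median of -0.26. Over all features tested, 7.44% were called higher and 8.32% lower, with a median of -0.0066. The lists were chosen with earlier results of these data known, so nothing is read from this count or those of the lists below. Besides those above, Mgst2, a microsomal transferase that can make leukotriene C4, read 3.43 and 4.16 in control and 0.98 and 1.09 in 3MC+TPA cells. It was lower by a log2 difference of -2.76 ± 0.27 (limma, adjusted p = 0.0052), and the call held without any 1 array. Alox5ap, a MAPEG protein that presents arachidonic acid to 5-lipoxygenase and is no transferase, was higher by 1.65 ± 0.18 (adjusted p = 0.0065; 0.051 without 3MC+TPA array 2).

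Genes that supply, recycle or degrade glutathione went in both directions: of 27 tested, 4 were higher and 6 lower, with a median of -0.32. Slc7a11, which imports the cystine needed for glutathione, read -2.19 and -1.49 in control and -4.12 and -4.67 in 3MC+TPA cells, lower by -2.56 ± 0.31 (limma, adjusted p = 0.0095; 0.057 without 3MC+TPA array 2). With normexp it was lower by -1.33. Idh1, an NADPH-producing dehydrogenase, read 0.85 and 1.26 against -0.92 and -1.16, lower by -2.10 ± 0.21 (adjusted p = 0.0054). Cbs, which starts the route from homocysteine to cysteine, was well above background on 0 of 2 control arrays and entered the test through its 3MC+TPA arrays alone. It was at least 5.84-fold higher by the reported processing, with a fitted difference of 3.29 ± 0.40, but the difference was 1.14 with normexp, below that bound. Its limma adjusted p of 0.0094 rose to 0.086 with no filter on dim probes and 0.06 without 3MC+TPA array 2, and it was not tested with the filter on all 4 arrays. The glutathione ligase subunits were not called: Gclc differed by -0.80 ± 0.27 (adjusted p = 0.11) and Gclm by -0.28 ± 0.29 (adjusted p = 0.55). Glutathione reductase, Gsr, differed by 0.58 ± 0.18 (adjusted p = 0.094) and was not called.

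The list of peroxidases and the thioredoxin system had 14 tested genes, 9 of them glutathione peroxidases or peroxiredoxins and 5 thioredoxins, their reductases or sulfiredoxin. Prdx4, a peroxiredoxin of the endoplasmic reticulum, was the only one of the 14 called. It was lower by a log2 difference of -1.17 ± 0.15 (limma, adjusted p = 0.011), a call that ended without either 3MC+TPA array, and the median of the 14 was -0.11. Of 6 tested pumps that export conjugates, 2 were lower and 0 higher (9 in the list), with a median of -0.46. Abcc3, an exporter of glutathione and glucuronide conjugates, read 2.06 and 2.99 in control and -1.02 and -0.75 in 3MC+TPA cells, lower by -3.41 ± 0.34 (adjusted p = 0.0052), and the call held without any 1 array. Abcg2 was lower by -0.82 ± 0.18 (adjusted p = 0.041) and lost its call without any 1 array. A list of 11 tested genes held 9 conjugating enzymes of other families and 2 epoxide hydrolases, which add water to epoxides. Of these 11, 3 were called, all lower, and the median was -0.17. They were the epoxide hydrolases Ephx2 (-1.47 ± 0.15, adjusted p = 0.0063) and Ephx1 (-1.18 ± 0.19, adjusted p = 0.02) and the sulfotransferase Sult1a1 (-1.14 ± 0.17, adjusted p = 0.015). Of these, Ephx2 kept its call without any 1 array; Ephx1 lost it without 3 of the arrays and Sult1a1 without either 3MC+TPA array.

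A list of 20 tested genes held 18 regulators known to act on transferase genes and 2 NRF2 target enzymes, Nqo1 and Hmox1. Of the 18 regulators, 2 were higher and 3 lower, with a median of 0.013, the same as for all 20. The NRF2 gene, Nfe2l2, differed by -0.58 ± 0.22 (limma, adjusted p = 0.14), and its inhibitor Keap1 by 0.04 ± 0.15 (adjusted p = 0.89), and neither was called. Nqo1, a quinone reductase used as a readout of NRF2, was lower by -1.30 ± 0.15 (adjusted p = 0.0084; 0.056 at most with 1 array left out), a call that ended without either 3MC+TPA array. Hmox1, Txnrd1 and Srxn1, also used as such readouts, were not called. Hmox1, heme oxygenase, differed by 0.19 ± 0.27 (adjusted p = 0.67), Txnrd1 by 0.07 ± 0.25 (adjusted p = 0.88) and Srxn1 by -0.44 ± 0.17 (adjusted p = 0.15). Among other genes known as NRF2 targets, Slc7a11, Ephx1 and Abcc3, described above, were called lower. So was G6pdx, by -1.51 ± 0.23 (limma, adjusted p = 0.017), a call that ended without control array 2 or 3MC+TPA array 1. Gclc, Gclm and Gsr were not called. Nor were Me1 (0.07 ± 0.19), Txn1 (-0.19 ± 0.16), Prdx1 (-0.62 ± 0.17) and Abcc1 (-0.28 ± 0.17). A part of NRF2 in these differences was not tested. Ahr, the hydrocarbon receptor gene, read 3.04 and 3.17 in control and 2.01 and 1.09 in 3MC+TPA cells. It was lower by -1.56 ± 0.33 (limma, adjusted p = 0.037), and lost its call without either control array or 3MC+TPA array 2. Of genes known as targets of the receptor, Nqo1 was lower as given above. Tiparp differed by 0.65 ± 0.16 (adjusted p = 0.06) and was not called, and Ahrr was well above background on 0 arrays. A part of the receptor in these differences was not tested. Bach2, a repressor that binds antioxidant elements, was higher by 2.33 ± 0.24 (adjusted p = 0.0059), and Cebpa was lower by -2.41 ± 0.20 (adjusted p = 0.0031); both calls held without any 1 array. Cebpa and Pparg are adipocyte markers as well. Pparg was lower by -1.28 ± 0.17 (limma, adjusted p = 0.012), a call that ended without either 3MC+TPA array. The adipocyte marker Cfd, also called lower, was well above background on the control arrays alone. Of 7 such markers, 3 were lower. Their summed signal was 1620 and 1950 percent of the array's 75th percentile in control and 1160 and 975 percent in 3MC+TPA cells. Most of that sum came from the Pparg and Fabp4 probes. Adipoq was well above background on 1 control array alone and was not tested. Plin1 and Lep were well above background on 0 arrays, and Fabp4 differed by 0.06 ± 0.23 (limma, adjusted p = 0.89). Their part in the transferase differences was not tested.

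**Figure D3:**
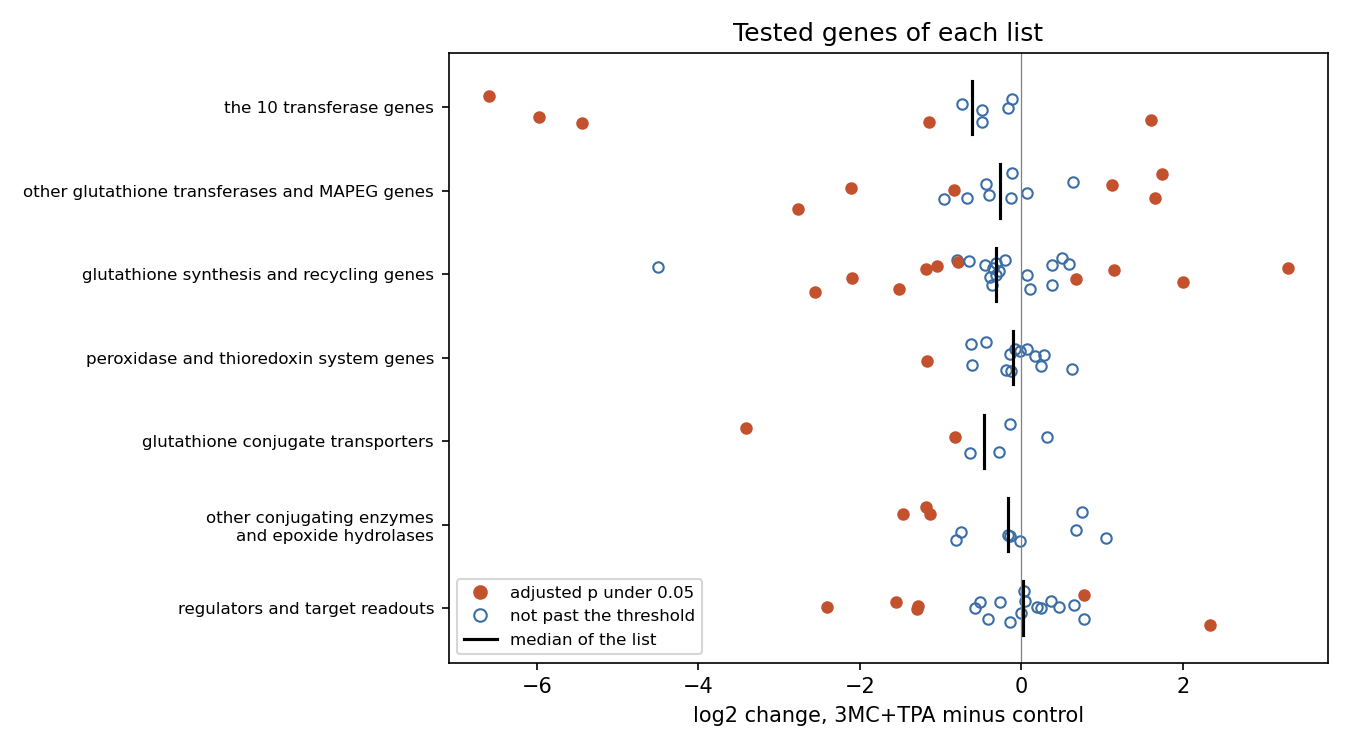
Log2 difference, 3MC+TPA minus control, of every tested gene in each list, with filled points for an adjusted p under 0.05 by limma and a bar at the median. The 10 transferase genes hold 3 points beyond -5, while the other lists spread on both sides of 0.

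The features whose pattern over the 4 arrays lay nearest to Gsta3, by the distance between values centred on each feature's own mean among 22643 features measured on all arrays, were Gm6804, Scara5, Gm773, Irx1 and Gpm6b. Their distances ran from 0.238 to 0.841 log2 units and their differences from -6.06 to -7.25. For Gstt1 the nearest were LOC100047619, Pmepa1, Aldh1l2, Mapk12 and 4931406P16Rik, at distances of 0.0939 to 0.137. With 4 arrays in 2 groups such nearness mostly records the size of the difference between groups.

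The predicted copies of transferase genes on the array differed little where they were measured. The mu-like Gm6665 differed by -0.35, both probes of Gm5562, whose sequences are identical, by -0.25 and -0.30, and both probes of the microsomal-like Gm6372 by -0.07 and -0.06. The alpha-like Gm2693 read -7.02 and -7.07 in control and -4.30 and -5.00 in 3MC+TPA cells, and was well above background on 1 array in all. No direction is read from it.

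**Figure D4:**
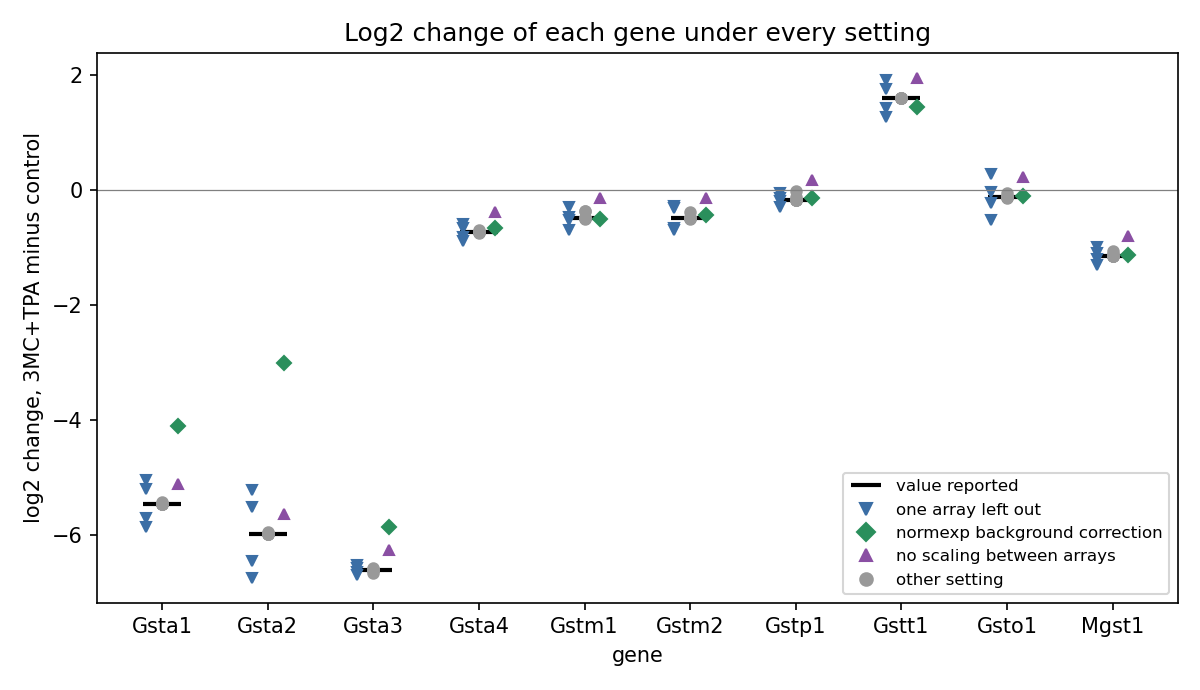
Log2 difference of each of the 10 genes under the reported processing and under each alternative that gave a value; Gsta2 has none with the filter on all 4 arrays. Gsta1, Gsta2 and Gsta3 lie at -3.002 or below in those shown, Gstt1 stays at 1.28 or above, and Gstp1 and Gsto1 cross 0.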

How the data were processed

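Spot intensity comes, per the file headers, from Agilent Feature Extraction 10.7.3.1; the processed signal is background-subtracted, with a substitute for dim spots. The authors' deposited table holds log2 values, and each of its columns matched log2 of that signal minus the array's 75th percentile within 0.02 for all but 5 to 11 of at least 61248 probes; genes are not centred, direction follows the scanner, and column medians run from -4.39 to -4.29. Per the submitters' processing notes, GeneSpring GX 11.5 was used.

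Here each array's log2 processed signals were scaled to their 75th percentile (non-control spots only), without outlier spots (20 to 68 per array). A gene name was read by its brightest probe and tested when well above background on both arrays of a group. Groups were compared with limma 3.58.1 in R 4.3.3 (2-sided, Benjamini-Hochberg over 24980 features, threshold 0.05), checked on simulated data. An at-least fold sets the bright group's mean against the dimmest well-measured signal.

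The 10 genes and the 6 other lists (126 genes) were chosen with earlier results of these data known. Genes named were all 10, up to 3 called genes with the largest change per other list, Nfe2l2, Keap1, Ahr, Nqo1, Gclc, Gclm and Gsr, and the nearest patterns. Cluster neighbours, Alox5ap, Pparg, Hmox1, Txnrd1, Srxn1, G6pdx, Me1, Txn1, Prdx1, Abcc1, Tiparp, Ahrr, markers and predicted copies were named after their values were seen. The array grid is mm9 and the gene table GRCm38.p6, so the table served for names, gene order and promoters, and 28136 probes matched it. The alternatives were normexp background correction, quantile normalization, no scaling, the deposited values, other filters, the mean of a gene's probes, a replicate block, the methods' t-test, an intensity trend and leaving out each array.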

Additional observations from a re-analysis of the deposited data

How the results depend on the processing

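The log2 differences of the 10 genes ranged over the alternatives from -5.85 to -4.10 (Gsta1), -6.73 to -3.002 (Gsta2), -6.69 to -5.85 (Gsta3), -0.88 to -0.38 (Gsta4), -0.69 to -0.14 (Gstm1), -0.69 to -0.13 (Gstm2), -0.28 to 0.18 (Gstp1), 1.28 to 1.95 (Gstt1), -0.52 to 0.28 (Gsto1) and -1.29 to -0.79 (Mgst1). Gsta4 was called with normexp, an intensity trend and the filter on all 4 arrays. Counts of calls by limma are given in the order all features, the 10 genes, other transferases, synthesis, the peroxidase and thioredoxin list, transporters, the conjugating enzyme and epoxide hydrolase list, and the list of regulators with 2 target enzymes. They were 3937, 5, 6, 10, 1, 2, 3 and 6 as reported. With no filter on dim probes they were 900 of 50090, 2, 1, 0, 1, 0, 1 and 2. With the methods' t-test they were 23 (5724 at an unadjusted p under 0.05), then 0 for each of the lists. Leaving out 1 array gave ranges of 1183 to 3270, 3 to 5, 2 to 6, 2 to 8, 0 to 1, 1 to 1, 1 to 3 and 2 to 5. Without scaling 6689 features were called, 79.1% of them higher against 47.2% as reported, and the median of all features moved to 0.34. Calls in the peroxidase and thioredoxin list were 4 with normexp or an intensity trend, and 2 with quantile normalization, no scaling or the filter on all 4 arrays. Leaving out 1 array moved Keap1 between -0.0084 and 0.0813 and Gclm between -0.6585 and 0.1045; Keap1 turned below 0 without control array 1 (-0.0084) or 3MC+TPA array 2 (-4e-04), and Gclm turned above 0 without control array 2 and with no scaling (0.0715). The causes were not tested. Same-numbered arrays did not deviate together (correlation 0.00606 over 29137 probes), and with a replicate block 3535 features and 5 of the 10 genes were called. Depth is limited by dim signal: Gsta2 in 3MC+TPA cells has only a bound.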

Other observations

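Of the 28 called genes in the lists other than the 10 transferases, 7 kept their call when any 1 of the 4 arrays was left out: Gstm7, Mgst2, Idh1, Abcc3, Ephx2, Bach2 and Cebpa. For 6 genes (Gstm5, Slc1a4, Oplah, Anpep, Abcg2 and Nfe2l1) leaving out any array ended it. Slc3a2, the partner chain of Slc7a11, read 4.89 and 5.16 in control cells, and 4.82 and -3.77 on the 3MC+TPA arrays. The low value stands on 3MC+TPA array 2 alone, and the difference (-4.50 ± 2.70, limma, adjusted p = 0.31) was not called. Slc3a2 was named after its values were seen.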
